A study of Rattus norvegicus with 10 samples.

Results

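The small leucine-rich proteoglycans (SLRPs) were described through 9 genes, Ogn, Omd, Fmod, Dcn, Lum, Bgn, Prelp, Kera and Epyc. Each gene was taken by its symbol in the platform annotation and had 1 probe, so the 9 genes stood for 9 of 13336 named genes on the array. Expression was measured in skull bone-derived cells (S-Bdc), grown from the calvaria, and in limb bone-derived cells (L-Bdc), grown from the ulna of the same 5 adult male CD rats. Cells of both sites were released from soft-tissue-free bone by collagenase, taken from the third digest, grown in αMEM with newborn calf serum and harvested without any treatment at passage 3 and 95% confluence. Each of the 10 cultures gave 1 Illumina RatRef-12 array, 5 per site, and the rat was the replicate.

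SLRPs are secreted proteins whose core is a run of leucine-rich repeats bent into an arc, and most carry chondroitin, dermatan or keratan sulphate chains. They bind the surface of collagen fibrils and affect how fibrils grow and pack, and several also bind growth factors of the TGF-β and BMP families. In bone, decorin and biglycan are the best known members, osteomodulin and osteoglycin (mimecan) were first isolated from bone matrix, and fibromodulin and lumican are abundant in tendon and other fibrous tissue. Keratocan is best known from the cornea and epiphycan from growth cartilage. Expression in a culture was read as log2 of the background-corrected signal plus an offset, normalised between arrays, so 1 unit is a doubling for a bright probe and less than the true change for a dim one. The level of one probe cannot be set against that of another.

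Across the whole array 2050 of 22517 probes differed between sites, or 9.10%, by limma with rat as a block and Benjamini-Hochberg adjusted p under 0.05. The 997 probes higher in S-Bdc made up 4.43% and the 1053 lower ones 4.68%. Of the 12736 probes whose signal passed the background limit on 3 arrays or more, 2043 were called, or 16%. The median raw signal of an array lay between 40.6 and 48.1 units. The S-Bdc array of rat 2 had a mean raw signal of 232 against 250 to 322 on the other arrays, and its values are given beside each member below. In bulk cultures, fewer cells of a type and less RNA per cell cannot be told apart. Of 8 measured osteoblast markers Col1a1 was higher in S-Bdc and the other 7 were not called, and the deposited intensities of the 8 summed to 4749 to 6886 in S-Bdc, against 3356 to 4285 in L-Bdc. Col1a1 made up most of these sums, with 4637.3 to 6777.3 in S-Bdc, against 3264.3 to 4196.7 in L-Bdc. Alpl and Ibsp were above background on all 10 arrays, osteocalcin (Bglap) on 3 S-Bdc and 1 L-Bdc arrays, Sp7 on 2 S-Bdc and 1 L-Bdc arrays, and the osteocyte genes Phex and Sost on none.

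Of the 9 SLRP genes, 3 were higher in S-Bdc than in L-Bdc, 0 were lower and 6 were not called. The share called, 33.3%, stood beside 9.10% of all probes, or the 4.43% higher and 4.68% lower in S-Bdc. Of probes above background on 3 arrays or more, 16% were called. The signals of Ogn, Omd and Fmod did not overlap between the sites, which held for 7.0% of all probes. The genes that rose were Ogn (osteoglycin) by 1.15 ± 0.10, Fmod (fibromodulin) by 1.36 ± 0.21 and Omd (osteomodulin) by 0.32 ± 0.06 (log2 difference ± SE, n = 5 pairs). Each of these 3 was also called with any 1 rat left out, rat 2 included. The decorin and lumican genes, Dcn and Lum, differed by less than their spread between rats. Bgn (biglycan) and Prelp had lower means in S-Bdc that did not pass the test, and Kera and Epyc were not above background on any array. Of the 9 genes, 7 were above background on at least 3 arrays and 2 on none. The median difference over the 9 genes was 0.038, beside -0.001 over all probes.

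**Figure D1:**
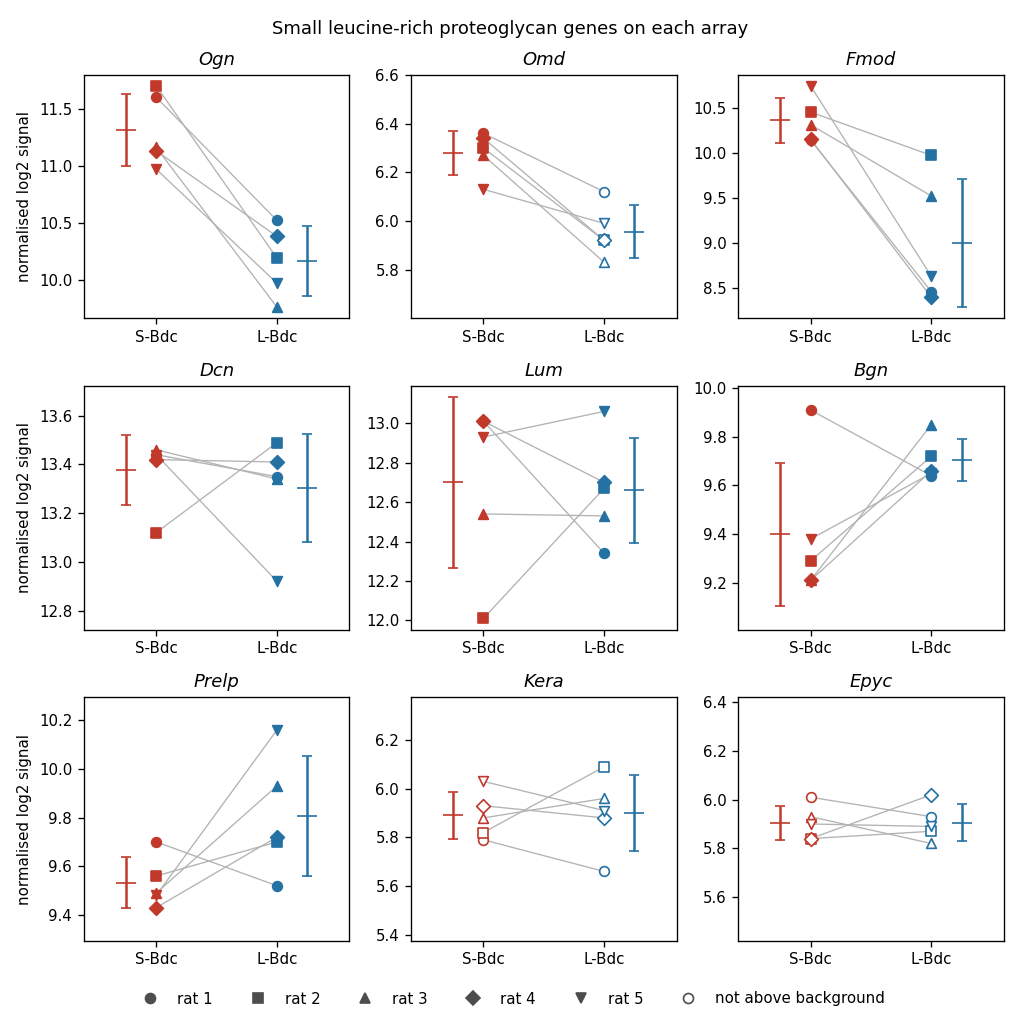
Normalised log2 signal (vertical axis) of the 9 SLRP genes in the S-Bdc (left) and L-Bdc (right) cultures, 1 symbol per rat, lines joining the cultures of a rat, open symbols for signals not above background, and bars for the mean and SD of each group of 5. Ogn and Fmod had S-Bdc points that all lay above the L-Bdc points, Omd did so close to background, and the points of the other 6 genes overlapped.

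Ogn encodes osteoglycin, a keratan sulphate SLRP of bone and fibrous tissue also called mimecan. The Ogn signal in S-Bdc was 11.60, 11.70, 11.16, 11.13 and 10.97 in rats 1 to 5, against 10.52, 10.19, 9.76, 10.38 and 9.97 in L-Bdc. The lowest S-Bdc culture, that of rat 5, lay above the highest L-Bdc culture, that of rat 1. The same could be read in the raw signals, at 1992.6 to 3370 units in S-Bdc, against 819.8 to 1368.1 units in L-Bdc. Mean signals were 11.31 ± 0.32 in S-Bdc and 10.16 ± 0.31 in L-Bdc (SD, n = 5 each), a 2.22-fold difference with a 95% interval of 0.92 to 1.37 on the log2 scale and an adjusted p of 0.000139 by limma. All 5 pairs ran the same way, with differences of 1.08, 1.52, 1.4, 0.76 and 0.99 in rats 1 to 5.

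Omd encodes osteomodulin, also called osteoadherin, a keratan sulphate SLRP of mineralised tissue that binds osteoblasts through an integrin. The Omd probe was dim, with raw signals of 59.9, 46.9, 52.4, 61.1 and 45.6 units in S-Bdc of rats 1 to 5 and 41.9, 34.3, 31.5, 34.2 and 40.0 units in L-Bdc. It was above the background limit of 8.514 deposited units on all 5 S-Bdc arrays and on 0 L-Bdc arrays. The nearest values to that limit were 8.8 in S-Bdc of rat 5 and 8.4 in L-Bdc of rat 1. After normalisation the signal was 6.36, 6.30, 6.27, 6.34 and 6.13 in S-Bdc, against 6.12, 5.92, 5.83, 5.92 and 5.99 in L-Bdc, and the groups just did not overlap. The S-Bdc level of Omd was at least 1.12-fold higher than that of L-Bdc, the L-Bdc level being no more than a bound (log2 difference 0.32 ± 0.06, 95% interval 0.19 to 0.46, limma adjusted p = 0.00696, higher in 5 of 5 pairs). The size of the Omd difference turned on the background step, at 0.64 with a normexp offset of 16 and 0.17 with the deposited intensities raised to a floor of 16, where it was no longer called (adjusted p = 0.55).

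Fmod encodes fibromodulin, which binds fibrillar collagen and takes part in its cross-linking. The Fmod signal was 10.14, 10.45, 10.31, 10.15 and 10.74 in S-Bdc of rats 1 to 5, against 8.46, 9.97, 9.52, 8.40 and 8.63 in L-Bdc. L-Bdc cultures fell apart into a higher pair, rats 2 and 3, and a lower group of rats 1, 4 and 5, whereas the S-Bdc cultures lay close together. Means were 10.36 ± 0.25 in S-Bdc and 9.0 ± 0.71 in L-Bdc (SD, n = 5 each), a 2.57-fold difference with a 95% interval of 0.90 to 1.83 on the log2 scale and a limma adjusted p of 0.00274. The pair differences of 1.69, 0.48, 0.80, 1.75 and 2.11 in rats 1 to 5 were all positive, and were smallest in rats 2 and 3, whose L-Bdc cultures had the highest values. With the deposited intensities plus 50 the difference was 1.39 and did not pass (adjusted p = 0.091).

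Dcn encodes decorin, which carries 1 chondroitin or dermatan sulphate chain, decorates collagen fibrils and binds TGF-β. The Dcn signal was 13.44, 13.12, 13.46, 13.42 and 13.44 in S-Bdc of rats 1 to 5, against 13.35, 13.49, 13.34, 13.41 and 12.92 in L-Bdc. The groups overlapped, and the lowest cultures were rat 2 in S-Bdc and rat 5 in L-Bdc. The difference was 0.07 ± 0.10, with a 95% interval of -0.16 to 0.30 (limma adjusted p = 0.812, higher in 4 of 5 pairs), so neither site was shown to have the higher level. The highest raw Dcn signal was 12202.5 units, where the highest signal of any probe on the 10 arrays was 15314.9 units.

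Lum encodes lumican, a keratan sulphate SLRP that limits the lateral growth of fibrils. Lum was 13.01, 12.01, 12.54, 13.01 and 12.93 in S-Bdc of rats 1 to 5, against 12.34, 12.67, 12.53, 12.70 and 13.06 in L-Bdc. S-Bdc of rat 2, the dimmest array, had the lowest value, and L-Bdc of rat 5 the highest. The difference was 0.04 ± 0.15 (95% interval -0.30 to 0.38, limma adjusted p = 0.948), higher in S-Bdc in 3 of 5 pairs. Without rat 1 it was -0.12 and without rat 2 it was 0.21, and neither passed.

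Bgn encodes biglycan, the relative of decorin with a pair of chains, and Prelp encodes the proline- and arginine-rich SLRP that binds heparan sulphate through its amino-terminal end. Bgn was 9.91, 9.29, 9.21, 9.21 and 9.38 in S-Bdc of rats 1 to 5, against 9.64, 9.72, 9.85, 9.66 and 9.65 in L-Bdc. Prelp was 9.70, 9.56, 9.49, 9.43 and 9.48 in S-Bdc, against 9.52, 9.70, 9.93, 9.72 and 10.16 in L-Bdc. In each gene rat 1 alone had the higher value in S-Bdc, and the other 4 pairs were lower in S-Bdc. The difference was -0.31 ± 0.11 for Bgn (95% interval -0.55 to -0.06, limma adjusted p = 0.146) and -0.27 ± 0.10 for Prelp (95% interval -0.51 to -0.04, limma adjusted p = 0.179). Without rat 1 both genes were called, Bgn at -0.45 ± 0.07 (limma adjusted p = 0.00171) and Prelp at -0.39 ± 0.08 (adjusted p = 0.0127). The count of SLRP genes called was then 5 of 9, with 3 higher and 2 lower, beside 2224 of 22517 probes. Rat 1 was the rat left out here and the only one with the higher value in S-Bdc.

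Kera (keratocan) and Epyc (epiphycan) gave signals that could not be told from background in either site. Raw signals of Kera were 29.1 to 40.7 units in S-Bdc, against 23.2 to 41.2 units in L-Bdc. Those of Epyc were 29.8 to 39.5 units in S-Bdc, against 31.0 to 38.7 units in L-Bdc. The lowest S-Bdc value of each gene, 29.1 and 29.8 units, was that of rat 2. Expression at the depth of these arrays was therefore not detectable. The fitted differences, -0.01 ± 0.07 for Kera and -0.01 ± 0.06 for Epyc, carry no level and were not called.

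The genes of the family lie in clusters in the rat genome, and the members were next set in the gene order of the GRCr8 RefSeq annotation. On chromosome 17, Ogn, Omd and Aspn follow each other. Aspn encodes asporin, an SLRP that binds collagen and calcium, and it came from a list of 9 further SLRP genes, of which 5 had a probe. Aspn was 11.14, 10.58, 10.49, 10.37 and 9.99 in S-Bdc of rats 1 to 5, against 10.13, 9.74, 9.77, 9.50 and 9.04 in L-Bdc. The groups overlapped through the high L-Bdc culture of rat 1, but within each rat S-Bdc was higher, by 1.01, 0.84, 0.72, 0.87 and 0.95. Aspn was 1.84-fold higher in S-Bdc (0.88 ± 0.05, 95% interval 0.76 to 1.0, limma adjusted p = 2.41e-05).

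**Figure D2:**
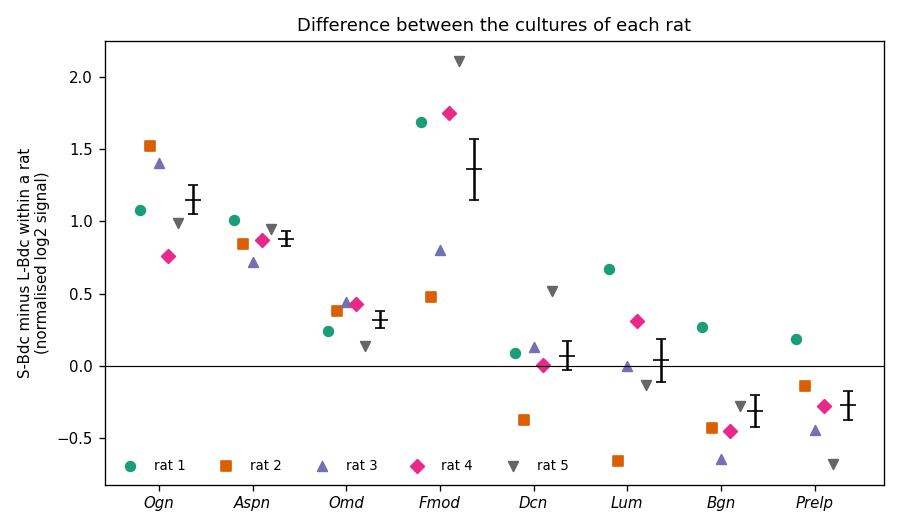
Difference between the cultures of each rat (vertical axis, S-Bdc minus L-Bdc in normalised log2 signal) for Ogn, Aspn, Omd, Fmod, Dcn, Lum, Bgn and Prelp, with 1 symbol per rat and the fitted difference with its SE beside them (n = 5 pairs). All 5 rats lie above 0 for Ogn, Aspn, Omd and Fmod, and for Bgn and Prelp rat 1 alone lies above 0.

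None of the 4 measured neighbours shown here was called higher in S-Bdc. On the Ogn side Nol8 differed by 0.03 ± 0.05 (adjusted p = 0.879) and Iars1 by 0.14 ± 0.08 (adjusted p = 0.405). On the other side Ippk differed by 0.00 ± 0.05 (adjusted p = 1), and Bicd2, a dynein adaptor gene, was lower in S-Bdc (-0.24 ± 0.06, limma adjusted p = 0.0328). Cenpp and the SLRP-related gene Ecm2, which also lie there, were not measured by a named probe. No test set the 3 SLRP genes against their neighbours.

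The cluster on chromosome 7 holds Dcn, Lum, Kera and Epyc in that order, and 0 of these 4 genes were called. Beside this, 9.10% of all probes were called, and 16% of those above background on 3 arrays or more. Kera and Epyc were above background on no array, so their lack of a call says nothing about their level. Btg1, an antiproliferative gene beside Dcn, was lower in S-Bdc (-0.60 ± 0.06, limma adjusted p = 0.000377), whereas Atp2b1 beyond Epyc differed by -0.02 ± 0.08 (adjusted p = 0.941). On chromosome 13, Optc (opticin), Prelp and Fmod follow each other. Optc was not above background on any array, Prelp had the lower mean in S-Bdc without passing the test, and Fmod rose. Prelp and Fmod therefore had fitted differences of opposite sign although they are adjacent. Chi3l1, a chitinase-like secreted protein gene further along, was higher in S-Bdc by 0.60 ± 0.06 (limma adjusted p = 0.000221). Bgn lies on the X chromosome apart from the others.

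**Figure D3:**
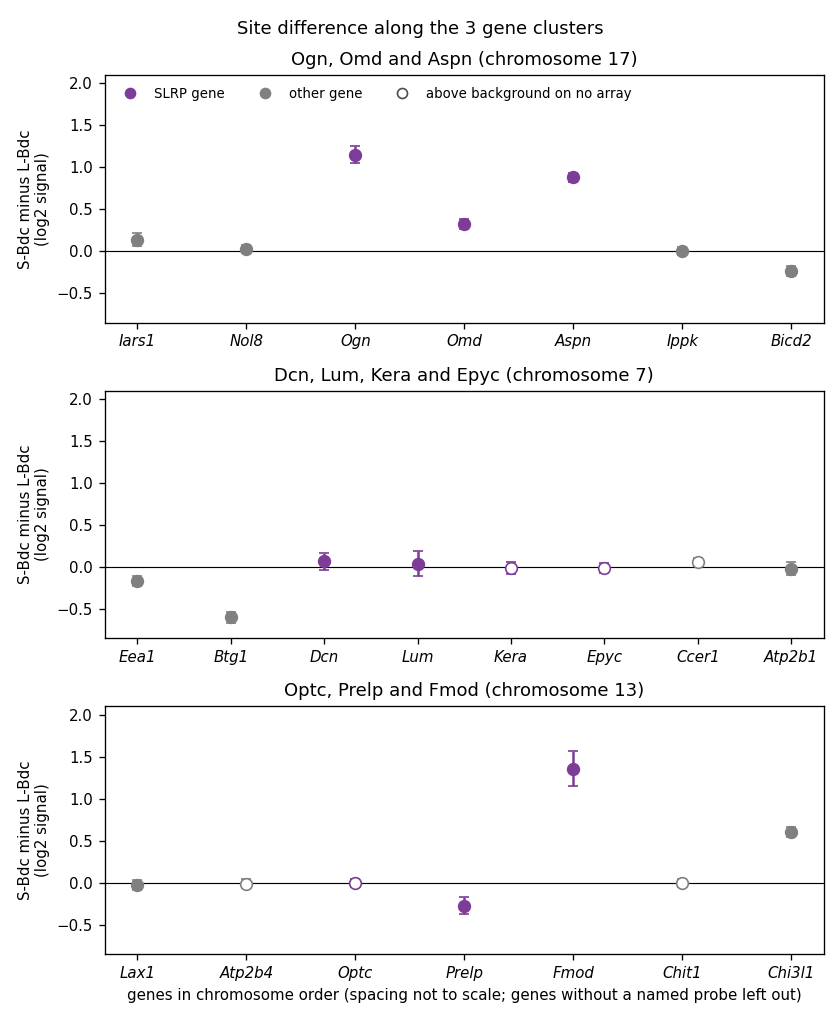
Site difference (vertical axis, S-Bdc minus L-Bdc in normalised log2 signal, with SE, n = 5 pairs) of SLRP genes and their neighbours in chromosome order for the clusters on chromosomes 17, 7 and 13. Ogn, Omd and Aspn lie above 0 together, the 4 SLRP genes of chromosome 7 lie near 0 with Btg1 below them at -0.60, and Fmod at 1.36 stands beside Prelp at -0.27.

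Upstream sequence of the 4 SLRP genes that rose is shown because 3 of them are neighbours that rose together. Each run is the 250 bases before the annotated start, read 5′ to 3′ along the gene's strand from RefSeq (GRCr8). RefSeq gave such a sequence for 6 of the 9 genes. Capitals mark matches, on either strand, to TATAAA (the TATA box), CANNTG (E-box), TGTGGT (RUNX motif), TGANTCA (AP-1 motif) or GGGCGG (GC box). Ogn lies at chr17:15258996-15259245, Omd at chr17:15274871-15275120 and Aspn at chr17:15310470-15310719, all on the minus strand, and Fmod at chr13:48045317-48045566 on the plus strand.
Ogn: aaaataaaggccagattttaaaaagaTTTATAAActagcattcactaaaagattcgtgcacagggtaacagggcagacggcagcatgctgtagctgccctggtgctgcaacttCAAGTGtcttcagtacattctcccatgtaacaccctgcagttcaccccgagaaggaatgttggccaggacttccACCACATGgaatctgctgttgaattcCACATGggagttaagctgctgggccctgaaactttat
Omd: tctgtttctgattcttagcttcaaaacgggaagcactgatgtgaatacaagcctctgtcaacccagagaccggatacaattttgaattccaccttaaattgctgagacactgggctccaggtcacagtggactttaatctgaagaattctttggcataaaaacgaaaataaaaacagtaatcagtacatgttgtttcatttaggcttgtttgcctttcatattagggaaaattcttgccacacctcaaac
Aspn: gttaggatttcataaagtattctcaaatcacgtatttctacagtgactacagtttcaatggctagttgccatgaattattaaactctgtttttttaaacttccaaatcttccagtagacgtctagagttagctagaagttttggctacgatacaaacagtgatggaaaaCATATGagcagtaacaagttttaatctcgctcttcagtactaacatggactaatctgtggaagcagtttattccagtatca
Fmod: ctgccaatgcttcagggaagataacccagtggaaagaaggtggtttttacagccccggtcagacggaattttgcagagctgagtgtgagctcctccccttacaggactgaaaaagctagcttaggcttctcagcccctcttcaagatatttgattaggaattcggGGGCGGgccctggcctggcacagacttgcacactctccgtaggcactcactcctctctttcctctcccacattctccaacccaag

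The Ogn window held 3 E-boxes, beginning at -137, -61 and -37 from the start, and 1 RUNX motif at -63 that overlaps the middle E-box. It also held 2 TATA matches, at -224 and -222, which overlap as the same letters read on both strands. Aspn held 1 E-box, at -81, and Fmod 1 GC box, at -85. Omd held a match to none of the 5 motifs. Over 33469 rat windows of the same length, 65.5% held an E-box, 30.5% a GC box, 14.5% a RUNX motif, 12.9% a TATA box and 6.3% an AP-1 motif. A match is only a run of letters, and no motif was shared by Ogn, Omd and Aspn.

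Variation among rats was followed within sites, by removing each site's mean from the 10 arrays and correlating pairs of genes. These correlations are descriptions over 10 arrays, which share rats and processing. Omd was above background on 0 L-Bdc arrays, so its correlations rest in part on L-Bdc signals at background. Ogn and Omd correlated at 0.66, Ogn and Aspn at 0.61 and Omd and Aspn at 0.51. Fmod ran the other way against Ogn (-0.42) and Omd (-0.62) and was near 0 against Aspn (-0.06). Thus Ogn and Fmod, although both were higher in S-Bdc, did not follow each other among rats of a site. Dcn and Lum, adjacent on chromosome 7, correlated at 0.08, Dcn and Prelp at -0.64, and Bgn and Prelp at 0.41.

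Among 6669 other genes above background on all 10 arrays, those whose variation within sites was most like that of a member were listed by the same correlation. For Ogn they were Trmt61a (0.927), Ebf3 (0.924) and Slc1a2 (0.921), and for Omd, over 6670 genes, Ehd4 (0.937), Cand2 (0.912) and Bap1 (0.908). For Fmod they were Kazald1 (0.921), Leng1 (0.901) and Fut8 (0.899), and for Dcn Josd2 (0.927), Gaa (0.879) and Mtg2 (0.874). For Lum the closest was Vcan (0.948), the gene of the large proteoglycan versican, then Zc3h7a (0.935) and Ginm1 (0.933). Bgn was closest to Yes1 (0.938), Creb3l1 (0.933), a transcription factor gene for collagen secretion, and Pcm1 (0.922), and Prelp to Kbtbd2 (0.988), Mrpl51 (0.957) and Copg1 (0.953). A high correlation within sites did not always go with a like difference between sites. Kazald1, the closest to Fmod, was lower in S-Bdc by limma (-0.51 ± 0.08, adjusted p = 0.00324), where Fmod was higher. These correlations are the highest of all those computed on 10 arrays and carry no test. Those of Omd rest in part on L-Bdc signals at background.

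The other measured genes of the family were not called. Chad (chondroadherin), Nyx (nyctalopin) and Tsku (tsukushi) were above background and differed by 0.05 ± 0.06, -0.01 ± 0.05 and 0.02 ± 0.08, with adjusted p of 0.788, 0.979 and 0.944. With Aspn, 1 of the 5 further SLRP genes rose and 0 fell (20.0% called, beside 9.10% of all probes and 16% of those above background). Their median difference was 0.022.

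The fibril proteins and cross-linking enzymes that SLRPs work with were followed in a list of 15 measured genes. In S-Bdc 3 rose, 1 fell and 11 were not called (26.7% called, beside 9.10% of all probes and 16% of those above background). Over the list the median difference was -0.038. Of the fibrillar collagen genes, Col1a1 and Col3a1 rose. Col1a2 (-0.01 ± 0.05), Col5a1 (-0.30 ± 0.10) and Col5a2 (-0.07 ± 0.12) were not called, and Col2a1 and Col5a3 were above background on no array. Col6a2, of the same collagen type as Col6a1, was dim and not called (0.07 ± 0.05). Col1a1 averaged 12.42 ± 0.23 in S-Bdc, against 11.84 ± 0.15 in L-Bdc (0.58 ± 0.06, adjusted p = 0.000382), and Col3a1 averaged 12.79 ± 0.15 in S-Bdc, against 12.16 ± 0.17 in L-Bdc (0.63 ± 0.08, adjusted p = 0.00079). Col6a1, of the beaded-filament collagen that decorin and biglycan bind, averaged 10.29 ± 0.62 in S-Bdc, against 9.57 ± 0.31 in L-Bdc (0.73 ± 0.12, adjusted p = 0.00489) and was not called without the rat block (adjusted p = 0.103). Loxl2, a collagen cross-linking oxidase, fell, at 9.58 ± 0.17 in S-Bdc and 10.17 ± 0.19 in L-Bdc (-0.59 ± 0.10, adjusted p = 0.00516). The Loxl2 call was lost with median scaling (-0.54, adjusted p = 0.0949) and without normalisation between arrays (-0.53, adjusted p = 0.211), and was lost in 5 of 14 alternatives, as was that of Col6a1.

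Enzymes that build and sulphate the sugar chains of SLRPs were followed through 25 measured genes. Of these, 2 rose, 3 fell and 20 were not called (20.0% called, beside 9.10% of all probes and 16% of those above background). The median difference was -0.008. Chsy1, a chondroitin synthase, averaged 6.79 ± 0.09 in S-Bdc, against 7.59 ± 0.13 in L-Bdc (-0.81 ± 0.07, adjusted p = 0.000166). Of the galactosyltransferases that extend keratan sulphate and other chains, B4galt1 fell (-0.61 ± 0.08, adjusted p = 0.00094) and B4galt4 rose (0.49 ± 0.07, adjusted p = 0.00165). Dse, the epimerase that turns chondroitin into dermatan sulphate, rose by 0.28 ± 0.07 (adjusted p = 0.0302) and was not called without rat 1, 4 or 5, at 0.24, 0.30 and 0.23. Dse was no longer called under 9 of 14 alternatives, which included median scaling (adjusted p = 0.0805), no normalisation between arrays (0.192) and a normexp offset of 16 (0.0977). The differences of Chsy1 and B4galt4 were -1.43 and 0.78 with the floor of 16, where neither was called (adjusted p = 0.0526 and 0.0783).

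The list of proteases that cleave SLRPs or mature them, with their helper, held 15 genes. Of these, 1 rose, 3 fell and 11 were not called (26.7% called, beside 9.10% of all probes and 16% of those above background). The median difference was -0.072. Mmp3 (stromelysin), which cleaves decorin, was 6.26, 6.29, 6.56, 6.42 and 6.33 in S-Bdc of rats 1 to 5, against 7.73, 8.43, 8.96, 8.74 and 8.13 in L-Bdc. The groups were far apart, at -2.03 ± 0.12 (adjusted p = 2.27e-05), with mean raw signals of 58.36 units in S-Bdc, against 326.1 units in L-Bdc. The S-Bdc signal was dim, so the size of the Mmp3 difference turned on the background step, at -2.64 with a normexp offset of 16 and -3.70 with the floor of 16. Adamts1 fell by 0.96 on the log2 scale (SE 0.11, adjusted p = 0.000627). Pcolce, the enhancer of the procollagen proteinase that also trims some SLRPs, rose by 0.39 ± 0.10 (adjusted p = 0.0339) and was not called without rat 2, 4 or 5, at 0.31, 0.38 and 0.33, or in 7 of 14 alternatives in all. Mmp9 lay just past the threshold (-0.20 ± 0.05, adjusted p = 0.0493) and was not called without rat 2, 3, 4 or 5, with values of -0.24 to -0.17 over the 5 rats left out in turn, and it failed the test under 11 of 14 alternatives.

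The list of growth factors and receptors that SLRPs bind held 20 measured genes. Of these, 2 rose, 6 fell and 12 were not called (40.0% called, beside 9.10% of all probes and 16% of those above background). Over the list the median difference was -0.116. The TGF-β ligand genes fell together. Tgfb1 averaged 7.24 ± 0.13 in S-Bdc, against 8.0 ± 0.14 in L-Bdc (-0.75 ± 0.07, adjusted p = 0.000201), Tgfb2 averaged 7.32 ± 0.27 in S-Bdc, against 8.25 ± 0.12 in L-Bdc (-0.93 ± 0.06, adjusted p = 3.54e-05), and Tgfb3 differed by -0.60 (adjusted p = 0.000368). Of the BMP ligands, Bmp2 fell (-0.67 ± 0.06, adjusted p = 0.00015) and Bmp6 rose (0.62 ± 0.06, adjusted p = 0.000211). Both BMP probes were dim, and their differences were -1.04 and 0.95 with a normexp offset of 16 and -1.79 and 1.44 with the floor of 16. With that floor Tgfb1 was -1.11 and Tgfb2 -1.32, and neither was called (adjusted p = 0.0535 and 0.0502).

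Of 20 further proteoglycan genes, 2 rose, 3 fell and 15 were not called, with a median difference of -0.057. The share of 25% called stood beside 9.10% of all probes and 16% of those above background. Prg4 (lubricin), the lubricating proteoglycan of joint surfaces, averaged 8.95 ± 0.82 in S-Bdc, against 10.60 ± 0.44 in L-Bdc (-1.65 ± 0.29, adjusted p = 0.00678). Cd44, the hyaluronan receptor, fell by 0.85 on the log2 scale (SE 0.10, adjusted p = 0.00079), and Cspg4 by 0.35 (SE 0.06, adjusted p = 0.00367). Tgfbr3 (betaglycan), a proteoglycan receptor for TGF-β, rose by 0.42 ± 0.09 (adjusted p = 0.0163) and was not called without rat 3, 4 or 5, at 0.43, 0.33 and 0.38. The call was lost in 7 of 14 alternatives for Tgfbr3, 4 for Prg4 and 3 for Cspg4, and for all of them without normalisation between arrays (adjusted p = 0.1, 0.0621 and 0.0913). Over the 6 lists of partner and related genes, 27 of 100 genes were called, 11 higher and 16 lower, beside 9.10% of all probes and 16% of those above background on 3 arrays or more, as 85 of the 100 genes were. All p-values came from the limma fit over every probe.

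**Figure D4:**
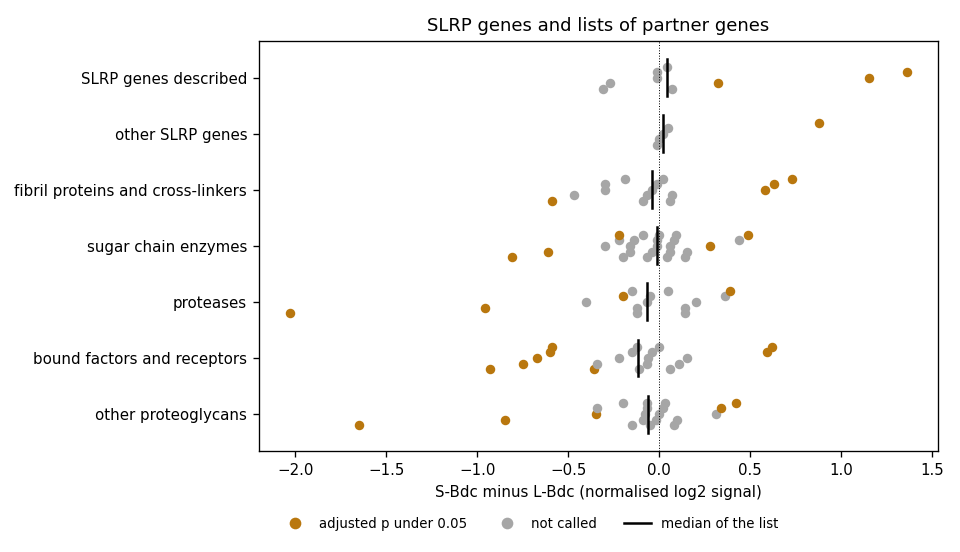
Site difference (horizontal axis, S-Bdc minus L-Bdc in normalised log2 signal) of each gene in the 9 described SLRP genes and the 6 related lists, with 1 point per gene, coloured where the limma adjusted p was under 0.05, and a bar at the list's median. Called SLRP genes lie to the right of 0 and Mmp3 and Prg4 far to the left, and the medians stay between -0.116 and 0.038.

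Markers of other cells and states also differed between the cultures. Of 5 measured tendon and fibroblast markers, 3 rose and 1 fell (80.0% called, median difference 0.389). Their summed deposited intensities were 9672 to 11924 in S-Bdc, against 11343 to 16595 in L-Bdc. S100a4 made up most of these sums, with 7936 to 10673.6 in S-Bdc, against 8477.6 to 11170.1 in L-Bdc. Thbs4 gave 63.1 to 699.7 in S-Bdc, against 1279.3 to 4499.2 in L-Bdc, so the sums do not follow the markers that rose. Tnmd (tenomodulin) rose by 1.02 ± 0.11 (higher in 5 of 5 pairs), Dpt (dermatopontin) by 1.44 ± 0.21 and Pdgfra by 0.39 ± 0.08, whereas Thbs4 fell by 3.38 on the log2 scale (SE 0.44). S100a4 was not called, and Scx and Mkx were not measured by a named probe. Mmp9 among 4 osteoclast markers and Tubb3 among 5 neuron markers fell, Tubb3 by 0.27 on the log2 scale (adjusted p = 0.044). Of 6 measured cell cycle genes 5 fell (83.3% called), with a median difference of -0.799. Their summed intensities were 1251 to 2366 in S-Bdc, against 3293 to 3957 in L-Bdc. Beside these marker counts, 9.10% of all probes were called, and 16% of those above background on 3 arrays or more. None of the measured chondrocyte (4), endothelial (3), adipocyte (4), muscle (5) and macrophage (3) markers was called, and the cartilage collagen gene Col2a1 was at background. The part of these differences in the values of the SLRP genes was not tested.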

How the data were processed

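The authors' raw table held the average bead signal of each probe on 10 Illumina RatRef-12 arrays, exported from BeadStudio as an intensity on a linear scale without normalisation. The deposited value table held processed intensities of the same arrays, apparently background-subtracted and quantile normalised, by steps that the sources used here do not give. Rows of both tables were matched by rank over the arrays (22517 of 22517 raw rows both ways), and gene names came from the platform annotation, which gave 13787 probes 1 symbol and 8730 none. SLRP genes were taken by symbol, and each had 1 probe. The members and the lists of related genes were chosen with earlier results of these data known.

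Background in the raw signals was corrected by the normexp method (offset 50), and log2 signals were quantile normalised. limma 3.58.1 (R 4.3.3) was fitted with rat and site over all 22517 probes, with Benjamini-Hochberg adjustment and a threshold of 0.05. A probe was above background at over 8.514 deposited units, the 95th percentile of the values at or below 0 mirrored about 0. Where no array of a site passed that limit, a fold was computed against the higher of the limit and the probe's own signal and is given as "at least". All 9 members were named, and in each list up to 4 called genes with the lowest adjusted p. Neighbours in gene order, the remaining SLRP genes, the collagen genes not called, the markers, Tgfb3 and Kazald1 were chosen for mention with their values already seen. The labels give the same rat to both cultures of a number. What was left after subtracting each site's mean correlated between the cultures of a rat, for rats 1 to 5, at 0.06, 0.211, 0.25, 0.176 and 0.129. By this measure S-Bdc of rat 1 was most like L-Bdc of rat 5, and S-Bdc of rats 2 to 5 most like L-Bdc of the same rat. Alternatives varied the normalisation, background step, source table, filter, block and test, and left out each rat. The number of arrays limits the precision. The fit was tested on simulated data with 200 changed probes. It recovered 80% of the 2-fold and 50% of the 1.4-fold changes, with 8 false calls. The median fitted log2 sizes were 0.51 and 0.22, so a gene not called may still differ. The simulated log2 noise had the same size for every probe. It was smaller than the spread between rats of Fmod in L-Bdc (SD 0.71) or Lum in S-Bdc (SD 0.43). Recovery was not simulated for genes that vary as much as these.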

Additional observations from a re-analysis of the deposited data

Results flagged for a closer look

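Single cultures stood apart from the other 4 of their site in 6 of 62 groups of 5 tested with Dixon's ratio, whose chance rate is about 1 in 20 groups. Of the SLRP genes, Dcn was 13.12 in S-Bdc of rat 2, against 13.42 to 13.46 in the other S-Bdc cultures, and 12.92 in L-Bdc of rat 5, against 13.34 to 13.49 in the other L-Bdc cultures. Both are low cultures, and they lie in different rats. Bgn was 9.91 in S-Bdc of rat 1, against 9.21 to 9.38 in the other S-Bdc cultures, and without this rat Bgn was called lower in S-Bdc (-0.45 ± 0.07, adjusted p = 0.00171 by limma). Chad was 6.53 in S-Bdc of rat 1, against 6.30 to 6.36 in the others. Among the partner genes, Chsy1 was 7.37 in L-Bdc of rat 5, against 7.61 to 7.71, and Tgfb2 was 8.04 in L-Bdc of rat 1, against 8.27 to 8.35.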

How the results depend on the processing

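Ogn, Omd and Fmod kept a higher mean in S-Bdc under all 14 alternatives, at 1.06 to 1.25, 0.17 to 0.64 and 1.18 to 1.59. With the deposited intensities raised to a floor of 16, the differences were 1.19 for Ogn (adjusted p = 0.0572), 0.17 for Omd (0.55) and 1.5 for Fmod (0.167), and 0 members, 209 probes (125 higher, 84 lower) and 5 genes of the lists were called. With the deposited intensities plus 50, Fmod was 1.39 (adjusted p = 0.091), and 758 probes and 17 list genes were called. Under the methods' t-test (paired) Ogn was 1.15, Omd 0.32 and Fmod 1.36, with adjusted p of 0.0749, 0.124 and 0.169. It called 0 members, 3 probes and 0 list genes, although 3 members and 3543 probes had an unadjusted p under 0.05. Without normalisation between arrays 870 probes, 513 higher and 357 lower, and 15 list genes were called, against 2050 and 27 as reported. The share of called probes that were higher in S-Bdc was 59.0% there and 59.8% with the floor, against 48.6% as reported. The causes of these changes were not tested.

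Leaving out each rat in turn gave -0.04 to 0.19 for Dcn, which was below 0 without rat 5, and -0.12 to 0.21 for Lum, below 0 without rat 1 (-0.12) or rat 4 (-0.03). It gave -0.45 to -0.22 for Bgn and -0.39 to -0.17 for Prelp, both called without rat 1, -0.04 to 0.05 for Kera, -0.03 to 0.04 for Epyc and -0.01 to 0.06 for Chad. Kera was above 0 without rat 2 (0.05) or 3 (0.01), Epyc without rat 2 (0.00 after rounding) or 4 (0.04), and Chad below 0 without rat 1 (-0.01). Members called ran over 3 to 5 and probes over 1324 (without rat 3) to 2224. Without the rat block, Ogn was 1.15 (adjusted p = 0.000562), Omd 0.32 (0.00456) and Fmod 1.36 (0.00577), 3 members and 1915 probes were called, and of the named genes Col6a1 was not. No member had another probe to try. Kera and Epyc lay at the floor of 16 on every array and were removed by the filter on background, so the floor and the filter gave no value for them.

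Dim signal limits Omd, Kera and Epyc. The L-Bdc values of Omd are bounds, as are the values of Kera and Epyc in both sites. The site of origin rests on the labels, gene names on the match of rows by rank, and 5 rats of 1 strain and sex were measured.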
